A study of Mus musculus with 15 samples.

Results

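The conventional, plasmacytoid and migratory dendritic cell (DC) genes Xcr1, Clec9a, Batf3, Itgae, Flt3, Zbtb46, Cd209a, Siglech, Ccr7 and Fscn1 were followed in mouse tumors during a week of intratumoral poly(I:C), a synthetic double-stranded RNA that Toll-like receptor 3 recognizes. These 10 genes were taken by name from the 32543 gene entries of the time course, and all 10 passed the filter on low counts and were among the 15494 genes tested. The tumors came from 1 mouse fibrosarcoma line, WEHI-164, placed under the skin of wild-type female BALB/c mice. RNA was sequenced from 15 whole tumors, 3 on each of 5 harvest days. Day 0 tumors were untreated. Tumors of days 1, 3, 5 and 7 received poly(I:C) once a day, 1 µg in 25 µL per the labels, out of 6 planned doses, so that the earlier days had received fewer doses. The study's supplement, in a figure legend, names a larger dose, which leaves the dose uncertain. No vehicle-injected tumors were analysed here, so that poly(I:C), repeated injection and days of growth cannot be told apart.

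DCs take up material from dying cells, carry it to lymph nodes and present it to T cells. Conventional type 1 DCs (cDC1) depend on the transcription factor Batf3, carry the chemokine receptor Xcr1 and the dead-cell receptor Clec9a, and present tumor antigen to CD8 T cells. Type 2 conventional DCs (cDC2) and DCs that arise from monocytes under inflammation mainly serve CD4 T cells, and plasmacytoid DCs (pDC) are known as producers of type I interferon. Toll-like receptor 3 is strongly expressed in cDC1, which makes this subset a known direct target of double-stranded RNA. When DCs mature, they gain the chemokine receptor Ccr7, which guides them along lymphatic vessels to the lymph node.

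The tumors held between 23.7 and 31.9 mega-counts each. Levels are given as CPM, in which each library is brought to the same size with TMM, a method that centers the bulk of genes. A count of 3, the limit that a count of 0 allows, was worth between 0.0972 and 0.125 CPM, which covers counting error only. One tumor stood apart before any member was considered. Day 3 replicate 1 lay at 144.5 on the first principal component of log2 CPM, which held 57.4% of the variance, while the other tumors lay between -77 and 45.06. Results that rest on it are given with and without it. In whole tumors, fewer cells of a type and less RNA per cell cannot be told apart. The replicates are separate tumors, and p-values measure the spread between them.

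Except for Fscn1, the members were rare transcripts. Per kilobase of exon, Ccr7 averaged 1.83 ± 0.214 CPM on day 0 (SD, n = 3), Itgae 1.01 ± 0.128, and Cd209a, the lowest, 0.252 ± 0.0895. Fscn1 averaged 102 ± 4.49 CPM per kilobase on day 0, far above every other member. Ptprc, the gene of the pan-leukocyte phosphatase CD45, averaged 8.07 ± 1.96 CPM per kilobase on the same day. Fscn1 therefore stood above a gene carried by all leukocytes, DCs included, and which cells its RNA came from was not tested. The other members were at levels below Ptprc. Counts behind single values ran from 12 to 626 for the members other than Cd209a and Fscn1.

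Xcr1 (ENSMUSG00000060509.4, chromosome 9, 123852315 to 123862029, minus strand, GRCm38) encodes the receptor for the chemokine Xcl1 and is a highly selective surface marker of cDC1. It read 1.01, 2.16 and 1.80 CPM in the day 0 tumors and 1.14, 1.40 and 2.33 on day 1. The day 3 tumors read 9.18, 2.61 and 3.62, followed by 4.39, 3.06 and 1.80 on day 5 and 1.99, 2.09 and 0.627 on day 7. All 3 day 3 tumors lay above all day 0 tumors, and day 3 replicate 1 was 5.54 times the day 0 mean. In the order of the day means, day 3 at 5.14 ± 3.54 CPM stood first and day 5 at 3.08 ± 1.30 second, with overlapping tumors, while days 0, 1 and 7 lay within their spread of each other at 1.66 ± 0.587, 1.62 ± 0.630 and 1.57 ± 0.819.

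Batf3 (ENSMUSG00000026630.9, chromosome 1, 191097847 to 191108945, plus strand), the basic leucine zipper factor that sustains cDC1, took a similar course. Its day 0 tumors read 1.82, 1.71 and 1.28 CPM, the day 1 tumors 1.27, 2.15 and 3.76, and the day 3 tumors 10.7, 3.97 and 3.74. Day 5 gave 4.36, 3.13 and 1.72, and day 7 gave 1.83, 2.93 and 0.961. The day 3 tumors were all above the day 0 tumors, whose mean was 1.60 ± 0.285 CPM, and 1 of the day 1 tumors lay between the 2 lower day 3 tumors.

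Clec9a (ENSMUSG00000046080.17, chromosome 6, 129408862 to 129424763, plus strand) encodes the lectin receptor with which cDC1 sense exposed actin of dead cells. It read 1.79, 3.50 and 2.80 CPM on day 0, 3.11, 4.07 and 2.11 on day 1, and 9.30, 2.98 and 3.15 on day 3. It then read 6.00, 3.77 and 3.13 on day 5 and 4.03, 3.99 and 2.76 on day 7. Outside day 3 replicate 1 and day 5 replicate 1, Clec9a stayed between 1.79 and 4.07 CPM in every tumor, and its day 3 tumors overlapped day 0. Although both genes mark cDC1, Clec9a did not share the separation of days 0 and 3 seen for Xcr1.

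Itgae (ENSMUSG00000005947.11, chromosome 11, 73090583 to 73147446, plus strand) encodes the CD103 integrin chain of tissue cDC1, which tissue-resident and regulatory T cells also carry. Its day 0 tumors read 5.23, 4.06 and 4.60 CPM, and the day 1 tumors, at 3.51, 2.27 and 3.63, were all lower. Day 3 gave 14.5, 4.23 and 7.66, day 5 gave 13.8, 2.17 and 2.95, and day 7 gave 3.21, 3.65 and 1.92. The day 7 tumors again lay below all day 0 tumors, and on day 5 a single tumor held most of the signal.

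Flt3 (ENSMUSG00000042817.15, chromosome 5, 147330741 to 147400489, minus strand) is the growth factor receptor on which DC development depends, and Zbtb46 (ENSMUSG00000027583.13, chromosome 2, 181387762 to 181459426, minus strand) is a transcription factor restricted among leukocytes largely to conventional DCs and also found in endothelium. Flt3 read 2.09, 2.64 and 2.52 CPM on day 0, and 1.84, 1.40 and 2.63 on day 1. Its day 3 tumors read 10.99, 2.65 and 1.79, its day 5 tumors 6.74, 1.46 and 1.15, and its day 7 tumors 1.55, 1.94 and 0.752. Zbtb46 read 3.24, 3.24 and 3.72 CPM on day 0, and 2.61, 1.83 and 3.60 on day 1. Its day 3 tumors read 12.2, 3.82 and 3.15, its day 5 tumors 7.32, 2.53 and 2.41, and its day 7 tumors 2.24, 2.74 and 1.63. For both genes the day 3 tumors overlapped day 0, and the day 7 tumors all lay below the day 0 tumors. The day 7 means were 1.41 ± 0.605 CPM for Flt3 and 2.20 ± 0.555 for Zbtb46, against 2.42 ± 0.291 and 3.40 ± 0.280 on day 0.

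Cd209a (ENSMUSG00000031494.7, chromosome 8, 3743397 to 3748984, minus strand), a DC-SIGN family lectin of monocyte-derived DCs and of some cDC2, was close to the detection limit. It exceeded the minimum CPM of the filter in 8 of the 15 tumors and its counts ran from 1 to 156. Day 0 gave 0.337, 0.298 and 0.561 CPM, day 1 gave 0.134, 0.0399 and 1.20, and day 3 gave 6.28, 0.882 and 0.661. Day 5 gave 2.12, 0.391 and 0.359, and day 7 gave 0.0407, 0.647 and 0.0418. The 3 day 3 tumors were above the day 0 tumors, but a single tumor carried the day 3 mean of 2.61 ± 3.18 CPM.

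Siglech (ENSMUSG00000051504.18, chromosome 7, 55768178 to 55778925, plus strand), the lectin that marks mouse pDC, covered a wide range. It read 1.85, 4.21 and 2.96 CPM on day 0, and 2.07, 0.878 and 5.41 on day 1. The day 3 tumors read 25.2, 4.38 and 4.36, the day 5 tumors 15.3, 3.20 and 2.05, and the day 7 tumors 0.976, 5.82 and 0.502. Day 3 lay above day 0 in all 3 tumors, although the 2 lower day 3 tumors exceeded the highest day 0 tumor only slightly and a day 1 and a day 7 tumor were higher than both. Day 3 replicate 1 was 8.38 times and day 5 replicate 1 was 5.09 times the day 0 mean of 3.01 ± 1.18.

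Ccr7 (ENSMUSG00000037944.8, chromosome 11, 99144196 to 99155077, minus strand), the homing receptor of mature DCs and of naive and central memory T cells, read 4.08, 3.24 and 3.56 CPM on day 0 and 4.81, 3.07 and 5.45 on day 1. It read 13.4, 4.34 and 3.31 on day 3, 15.6, 2.21 and 1.94 on day 5, and 1.67, 2.24 and 1.00 on day 7. Ccr7 was the one member whose highest tumor was day 5 replicate 1. The day 7 tumors, at a mean of 1.64 ± 0.621 against 3.63 ± 0.424 on day 0, lay below all day 0 and all day 3 tumors.

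Fscn1 (ENSMUSG00000029581.14, chromosome 5, 142960343 to 142973185, plus strand) encodes fascin, an actin-bundling protein of mature DCs that many tumor and mesenchymal cells also make. It read 324, 298 and 304 CPM on day 0, and 319, 292 and 286 on day 1. The day 3 tumors read 123, 293 and 246, the day 5 tumors 295, 299 and 302, and the day 7 tumors 283, 304 and 305. Fscn1 was flat on every day but day 3, where all 3 tumors lay below day 0 and day 3 replicate 1, the tumor highest for 8 of the other members, was the lowest of all 15. The 6 genes listed for fibrosarcoma cells and fibroblasts did not follow it as a list. Their sum was highest in day 3 replicate 1, at 17837 CPM against 7259 to 9758 in the tumors other than that and day 5 replicate 1. Within the list, the collagen gene Col1a1 read 5818 CPM there against a day 0 mean of 811, while the filament gene Vim was lowest there, at 2763 CPM against 4844.

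**Figure D1:**
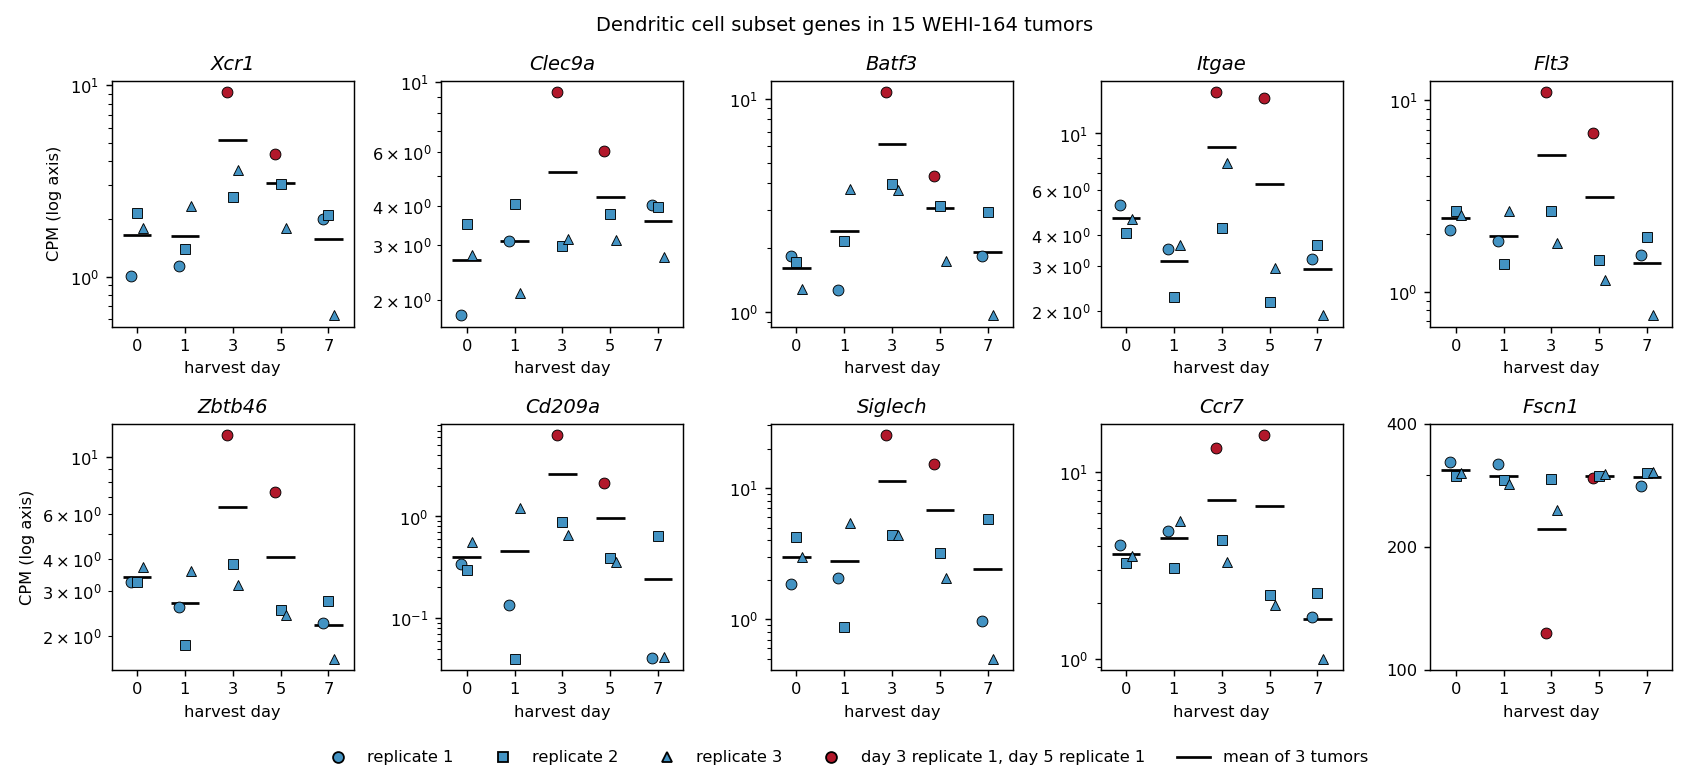
Level of each member (CPM, log axis, scale set for each panel) against harvest day, with 1 point per tumor and a bar at the mean of 3 tumors. Day 3 replicate 1 is the highest tumor for 8 members, Ccr7 is highest in day 5 replicate 1, and Fscn1 is lowest in day 3 replicate 1 at 123 CPM.

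The comparison of day 3 with day 0 asked whether DC genes were higher after the first days of injection. In edgeR (quasi-likelihood F test, Benjamini-Hochberg adjusted over all genes tested), no member was called at an adjusted p under 0.05, where 0.0% of all genes were called. Batf3 came closest, with a log2 fold change of 1.93 (SE 0.55, edgeR adjusted p = 0.115), and Xcr1 had 1.63 (SE 0.57, edgeR adjusted p = 0.118). The widest errors were those of Cd209a at 2.70 (SE 1.27, edgeR adjusted p = 0.171) and Siglech at 1.91 (SE 1.06, edgeR adjusted p = 0.22). The other conventional DC genes lay between 0.91 for Zbtb46 and 1.09 for Flt3, with adjusted p from 0.181 to 0.297 by edgeR, Ccr7 had 0.95 (SE 0.73, edgeR adjusted p = 0.353), and Fscn1 had -0.48 (SE 0.22, edgeR adjusted p = 0.164). At an unadjusted p under 0.05, edgeR gave 3 of the 10 members, namely Batf3, Xcr1 and Fscn1, where 30.0% of all genes passed, so the members' share was that of genes in general.

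The direction was shared more widely than the calls. Of the members, 9 had a positive log2 fold change on day 3 and the median over the 10 was 1.02, against -0.02 over all genes tested. Without day 3 replicate 1, the median was 0.28, 8 were positive, Batf3 kept 1.26, Xcr1 0.91 and Cd209a 0.96, and the rest lay between -0.19 for Fscn1 and 0.54 for Siglech. Flt3 turned to -0.12 and Zbtb46 and Ccr7 came to 0.04 and 0.08. The 4 members whose day 3 tumors all lay above day 0, Xcr1, Batf3, Cd209a and Siglech, were set against 19.4% of all genes, and with day 3 replicate 1 left out the same 4 remained against 23.2%. Fscn1 lay below day 0 in all day 3 tumors, as did 19.0% of genes, or 22.9% without that tumor.

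DESeq2 gave more calls than edgeR. For day 3 against day 0 it called Batf3 (DESeq2 adjusted p = 0.018) and Xcr1 (DESeq2 adjusted p = 0.041), that is 2 of 10 members where it called 13.5% of genes with an adjusted p. Without day 3 replicate 1, DESeq2 called none of the 10 and 0.555% of genes, with an adjusted p of 0.268 for Batf3 and 0.44 for Xcr1. Over the treated days jointly, edgeR called no member and 0.0% of genes. Batf3 and Xcr1 passed an unadjusted p of 0.05 in that joint edgeR test, where 16.2% of genes did. DESeq2 called only Batf3 jointly (DESeq2 adjusted p = 0.0418), where it called 7.63% of genes.

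From day 3 to day 7, 9 of the 10 members had a negative log2 fold change and Fscn1 a positive one of 0.43 (SE 0.22, edgeR adjusted p = 0.173). No member and 0.0% of genes were called by edgeR, and 7 of the 10 passed an unadjusted p of 0.05 in edgeR where 35.5% of genes did. The log2 fold changes were -1.68 for Batf3 (SE 0.55, edgeR adjusted p = 0.0845), -1.70 for Xcr1 (SE 0.57, edgeR adjusted p = 0.0855) and -2.09 for Ccr7 (SE 0.76, edgeR adjusted p = 0.0941). Zbtb46, Itgae and Flt3 had -1.53, -1.59 and -1.86, Siglech had -2.21 and Cd209a -3.37, and Clec9a, at -0.52 (SE 0.45, edgeR adjusted p = 0.391), had the smallest value among the members that were lower. The median over the members was -1.69, against 0.02 over all genes tested, and it was -0.90 without day 3 replicate 1. Xcr1, Batf3, Itgae, Zbtb46, Cd209a and Ccr7, 6 of 10 members, lay below every day 3 tumor on day 7, where 18.4% of genes did so, and the same 6 did without day 3 replicate 1, where the share was 21.5%. No member lay above all day 3 tumors on day 7, where 14.6% of genes did. These 6 were also the members DESeq2 called, with adjusted p from 0.0229 for Batf3 to 0.0478 for Itgae and with 21.6% of genes called. Without day 3 replicate 1, DESeq2 gave no adjusted p for these 6, but their unadjusted p in DESeq2 ran from 0.0655 for Batf3 to 0.219 for Cd209a, so that none of them could be called, and no member passed an unadjusted p of 0.05 in edgeR.

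**Figure D2:**
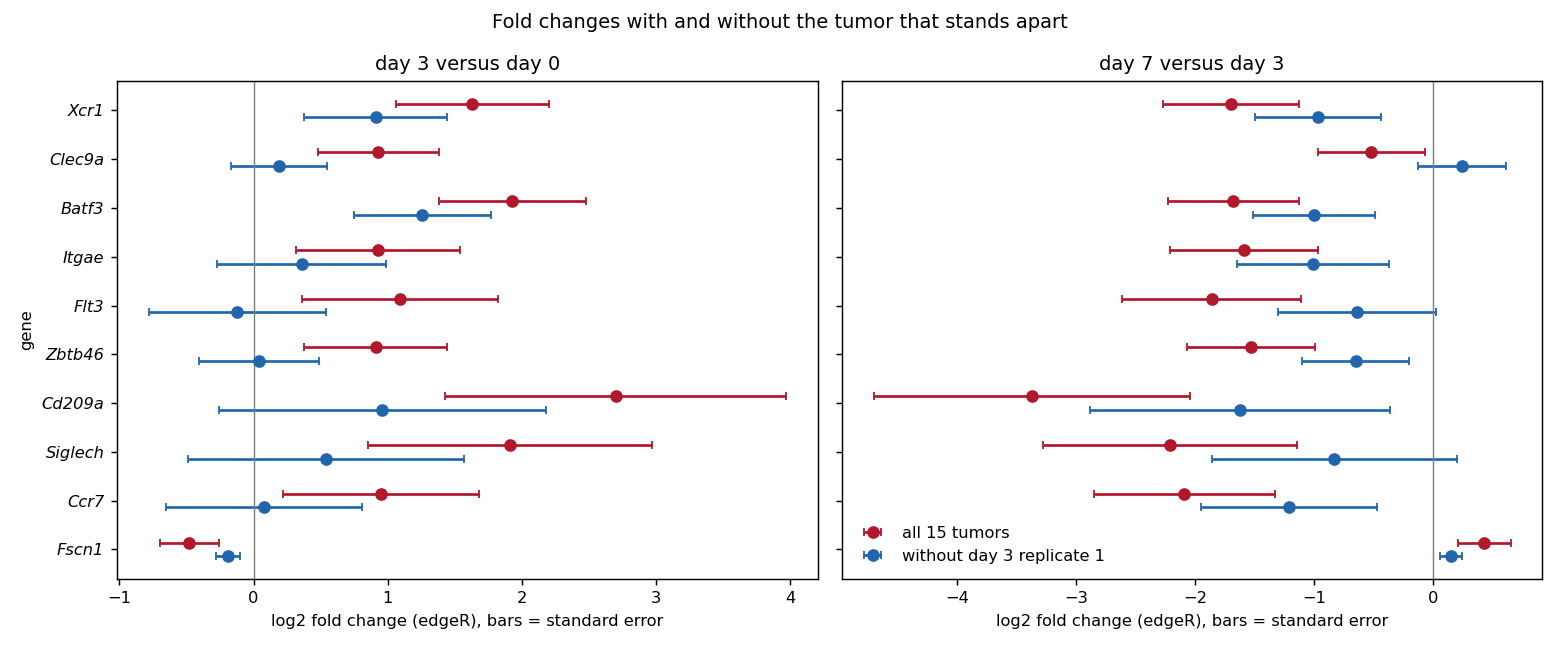
Log2 fold change of each member by edgeR with its standard error, for day 3 against day 0 (left) and day 7 against day 3 (right), with all 15 tumors in red and without day 3 replicate 1 in blue. The blue values lie nearer to 0 for every member in both panels, and Clec9a goes from -0.52 to 0.24 on the right.

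Against day 0, the last day was below the starting level for some members. Itgae, Flt3, Zbtb46 and Ccr7 were lower in all 3 day 7 tumors than in any day 0 tumor, 4 of 10 members where 6.26% of genes were so placed. No member was higher in all day 7 tumors, where 5.02% of genes were. The log2 fold changes were -0.66 for Itgae, -0.77 for Flt3, -0.62 for Zbtb46 and -1.14 for Ccr7, each with an edgeR adjusted p of 1. None of the members passed even an unadjusted p of 0.05 in edgeR on day 7, where 2.07% of genes did, and the median over the 10 was -0.46.

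On day 5 the picture rested on a single tumor. With all tumors, no member was separated from day 0 in either direction, where 6.89% of genes lay higher and 10.8% lower, and the median log2 fold change was 0.77 with 9 of 10 positive. Without day 5 replicate 1 the median was -0.14 with 3 of 10 positive. Day 5 replicate 1 was the second highest tumor for 8 members, between 2.15 times the day 0 mean for Zbtb46 and 5.33 times for Cd209a. In the remaining 2 day 5 tumors, Itgae, Flt3, Zbtb46 and Ccr7 lay below all day 0 tumors, where 14.7% of genes did, and these were the members that lay below day 0 on day 7 too. No member passed an unadjusted p of 0.05 in edgeR on day 5, where 4.8% of genes did.

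On day 1 the median log2 fold change of the members was -0.04, with 4 positive and 6 negative. Without day 1 replicate 3 it was -0.48, with 3 positive and Cd209a lowest at -2.09. No member passed an unadjusted p of 0.05 in edgeR where 3.16% of genes did. Itgae lay below day 0 in all day 1 tumors, where 6.61% of genes did, and no member lay above, where 5.76% did. DESeq2 called no member on day 1, 5 or 7, where it called 0.259%, 0.0742% and 0.0324% of genes.

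The tumors high in DC genes were also high in other cell types. The summed level of the 9 members other than Fscn1 was 112 CPM in day 3 replicate 1 and 75.7 CPM in day 5 replicate 1, and between 10.2 and 31.4 CPM in the other 13 tumors. A list of 8 T cell genes summed to 321 CPM in day 3 replicate 1, 177 in day 5 replicate 1 and 12.7 to 95.8 elsewhere. The 4 NK cell genes gave 90.6, 46.9 and 4.93 to 41.9, and the 10 macrophage and monocyte genes gave 5807, 2290.1 and 945 to 2641 CPM. The 4 genes of naive lymphocyte homing, cells that also carry Ccr7, gave 197, 192 and 102 to 182. All of these lists were highest in day 3 replicate 1.

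Genes of further tissues and cell types also differed between these libraries, and whether their RNA came from tissue around the tumor was not tested. The 5 skeletal muscle genes summed to 2160.3 CPM in day 3 replicate 1, against 137 or less in the other tumors and 2.71 in day 5 replicate 1. The 4 adipocyte genes gave 227 CPM in day 3 replicate 1 and 53.5 in day 5 replicate 1, and the 6 B cell genes gave 32.4 and 6.88, where no other tumor exceeded 36.2 for adipocyte and 6.58 for B cell genes. The 3 endothelial genes gave 441 and 246 CPM against 67.1 to 205 in the rest. The 2 Langerhans cell genes, of the epidermal DC type that also carries DC transcripts, gave 2.26 CPM in day 3 replicate 1. They gave 1.32 in day 5 replicate 1 and 0.251 to 1.39 elsewhere. Epcam, a gene of this list, was highest in day 3 replicate 1, at 0.604 CPM from 15 counts. Day 5 replicate 1 followed at 0.476 CPM from 13 counts, and the other tumors read from 0 to 0.239 CPM. Cd207, the other gene of the list, was also highest in day 3 replicate 1, at 1.65 CPM. In day 5 replicate 1 Cd207 read 0.842 CPM, below 1.25 in day 5 replicate 2 and 1.20 in day 0 replicate 3. The 4 keratinocyte genes were lowest in day 3 replicate 1 at 1.97 CPM and highest in day 3 replicate 3 at 25.2. The part of these cell types in the members' levels was not tested.

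**Figure D3:**
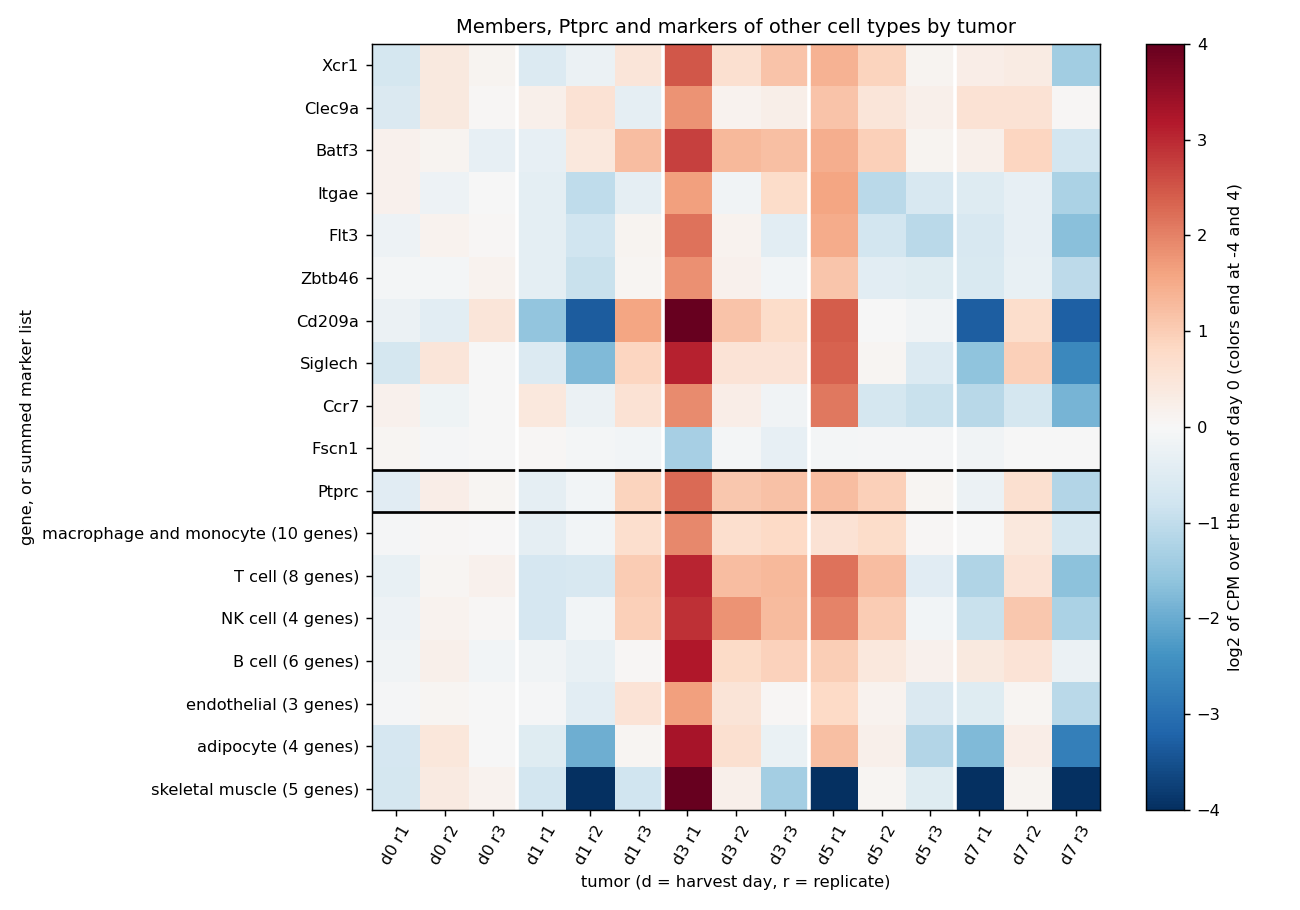
Log2 of CPM over the mean of the day 0 tumors, by tumor (columns, ordered by harvest day and replicate) for the members, for Ptprc and for the summed marker genes of 7 other cell types. Day 3 replicate 1 is red in every row but Fscn1, and day 5 replicate 1 is red for the members other than Fscn1 and for the leukocyte lists but blue for skeletal muscle.

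Ptprc, which leukocytes of all kinds carry, averaged 148 ± 35.9 CPM on day 0, 177 ± 86.6 on day 1, 451 ± 220 on day 3. It then averaged 262 ± 95.5 on day 5 and 142 ± 84.3 on day 7. As a ratio to Ptprc in the same tumor, a measure added after the data were seen, no member was separated upward from day 0 on day 3, where 0.852% of genes were. The log2 ratio of Xcr1 to Ptprc averaged -6.52 ± 0.20 on day 0 and -6.57 ± 0.32 on day 3, a difference of -0.05. Batf3 differed by 0.23, Siglech by -0.08 and Cd209a by 0.47, with overlapping tumors for each. Clec9a had a mean log2 ratio of -5.80 ± 0.13 on day 0 and -6.56 ± 0.28 on day 3, and all day 3 tumors lay below all day 0 tumors. Zbtb46 (difference -0.90) and Fscn1 (difference -2.11) were likewise separated, so that 3 of 10 members lay below day 0 where 82.1% of all genes did. Ptprc itself lay higher in all day 3 tumors, from 313 to 705 CPM, than on day 0, from 108 to 178, and a gene of unaltered CPM is then lower on this ratio. Of the other members, Itgae at -0.78, Flt3 at -0.90 and Ccr7 at -0.86 overlapped day 0. The day 3 tumors of Xcr1, Batf3, Cd209a and Siglech thus lay above day 0 in CPM and overlapped it as a ratio to Ptprc. For Siglech, that overlap was day 3 replicate 1 alone, at -4.8, and its remaining day 3 tumors lay below the day 0 minimum of -5.87. Flt3 and Ccr7 likewise overlapped day 0 only in day 3 replicate 1, at -6.0 and -5.72 against day 0 minima of -6.07 and -5.78. The share of all genes so placed without that tumor is not given here.

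**Figure D4:**
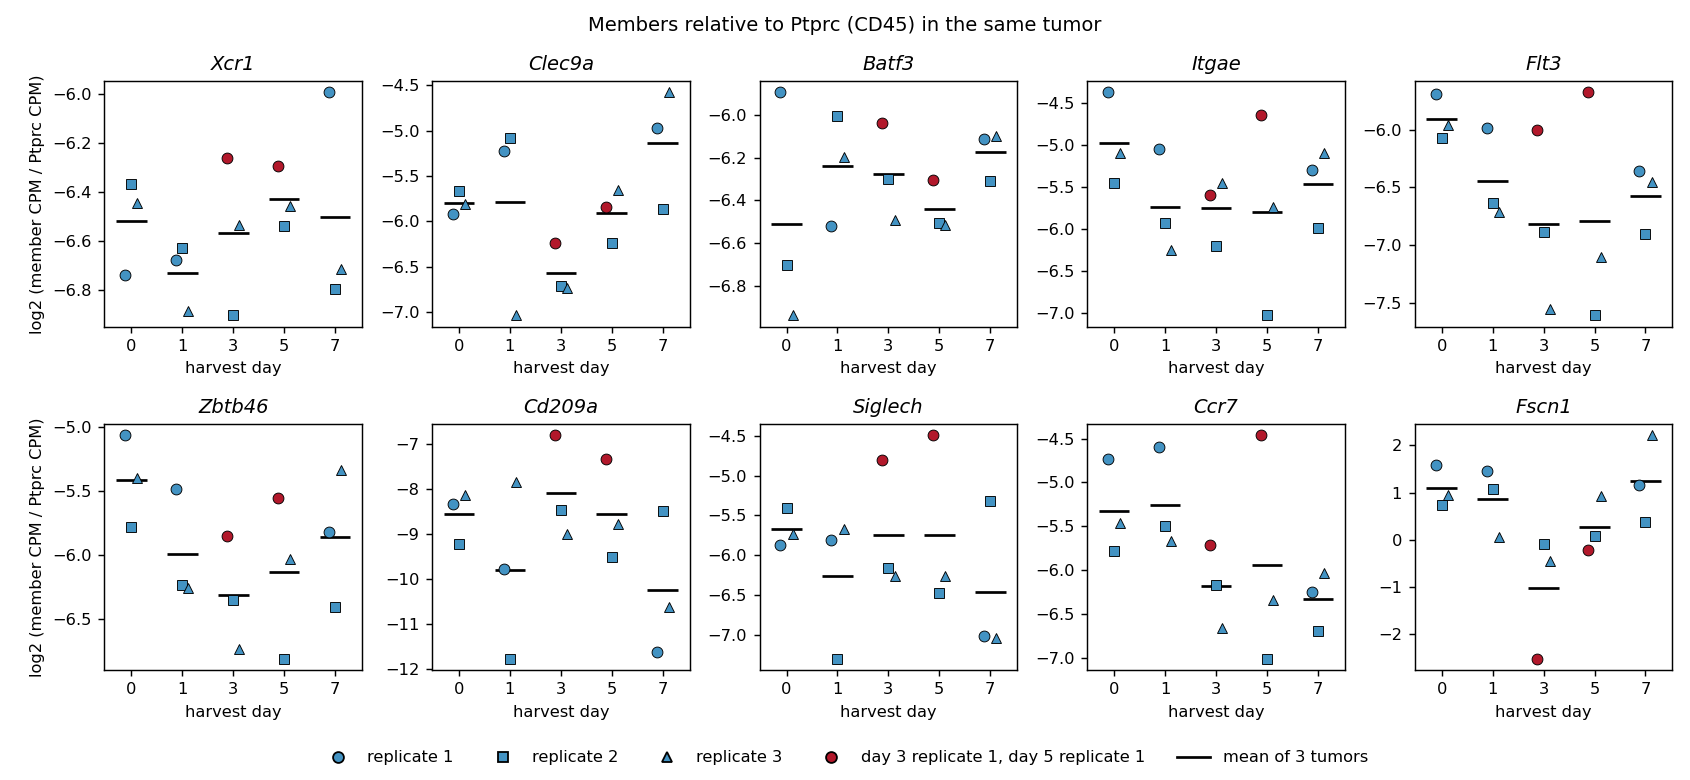
Log2 of each member's CPM over the CPM of Ptprc in the same tumor, against harvest day, with 1 point per tumor and a bar at the mean of 3 tumors. The day 3 points of Clec9a, Zbtb46 and Fscn1 all lie below their day 0 points, and those of Xcr1 and Batf3 overlap day 0.

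Across the 15 tumors the members did not move as a single block. Spearman's rho over the 36 pairs of members other than Fscn1 ran from 0.03 to 0.96 with a median of 0.675, as a description of tumors that share the immune content and the outlying libraries given above. The closest pair was Flt3 and Zbtb46 at 0.96, or 0.95 without day 3 replicate 1, and the cDC1 genes Xcr1 and Batf3 had 0.85. Clec9a had rho between 0.03 and 0.53 to the other 8, highest with Xcr1 and lowest with Ccr7, and between -0.20 and 0.42 without day 3 replicate 1. Fscn1 had negative rho to every other member, from -0.70 with Xcr1 to -0.21, or from -0.64 to -0.05 without that tumor. The 36 pairs then ran from -0.20 to 0.95.

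The genes nearest to each member in rank over the 15 tumors, among all genes tested, differed between members. Xcr1 was nearest to Spn, with a rho of 0.993, and to Il16 and Rac2 (0.986 each), and Batf3 to Pigk (0.971), Mtmr1 (0.964) and Nubp2 (0.957). Flt3 was nearest to Sparcl1 (0.979), Col15a1 (0.961) and Adgrl4 (0.957), and Ccr7 to Lama4 (0.936), Mcam and Hs3st1 (0.914 each). Siglech was nearest to Srpx (0.996), Adamts15 and Adamts2 (0.986 each), and Cd209a to Cyp2j9 (0.982), Cpeb1 and Slc1a3 (0.964 each). Zbtb46 was nearest to C130074G19Rik and Cd200r3 (0.971 each) and Rab44 (0.964), and Itgae to Ptger3 (0.904), Izumo1r (0.896) and Ino80b (0.893). Fscn1 was nearest to Ptpn12 (0.95), Rbm15b (0.946) and Vkorc1l1 (0.921), and Clec9a had the loosest neighbours, Arhgef10 (0.857), Oat and Tagap (0.836 each). With day 3 replicate 1 left out, the first neighbour was the same for every member but Clec9a, for which Arhgef10 held rank 3.

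Lists of further genes of each DC subset were compared between day 3 and day 0 in the same fits. edgeR called none of them. DESeq2 called 4 of 11 cDC1 genes (Irf8, Cadm1, Wdfy4 and Tlr3), 3 of 8 cDC2 genes (Itgax, Sirpa and Irf4), 6 of 12 pDC genes, none of 13 maturation genes and 1 of 10 ligands, partners and related genes (Batf), where 13.5% of genes were called. Without day 3 replicate 1, DESeq2 kept only Bst2 and Irf7 of these, where it called 0.555% of genes. Both are pDC genes that interferon induces in most cells. At an unadjusted p under 0.05 in either direction, the edgeR counts below stand against 30.0% of all genes, or 13.1% without that tumor. Of 11 further cDC1 genes, 10 had a positive log2 fold change on day 3 with a median of 0.78, and 8 passed an unadjusted p of 0.05 in edgeR. Without day 3 replicate 1 the median was 0.60 and 3 passed, Cadm1, Wdfy4 and Tlr3. Tlr3, the receptor for double-stranded RNA, averaged 19.8 ± 1.92 CPM on day 0 and 33.3 ± 3.63 on day 3, and all its day 3 tumors, from 30.9 to 37.5 CPM, lay above the day 0 range of 17.6 to 21.1. Its log2 fold change was 0.75 (SE 0.22, edgeR adjusted p = 0.115), and its level in day 3 replicate 1 was 31.6 CPM, within the range of the other day 3 tumors. On day 1, Tlr3 already averaged 33.4 ± 12.9 CPM, and the tumors of that day, from 22.9 to 47.7 CPM, also lay above day 0. Day 1 replicate 3 was the highest tumor for Tlr3. The study states that cancer cells express this receptor too, and which cells the RNA came from was not tested. Wdfy4, which cDC1 need for cross-presentation, had 1.33 (SE 0.37, edgeR adjusted p = 0.115).

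Among cDC2 genes, 6 of the 8 tested were higher with a median of 1.22, and 5 passed an unadjusted p of 0.05 in edgeR. The median was 0.51 without day 3 replicate 1 and 1 passed, Mgl2, with a log2 fold change of -2.13. Itgax, the CD11c integrin chain shared with macrophages, averaged 40.7 ± 10.5 CPM on day 0 and 111 ± 72.4 on day 3. Clec10a, a lectin of cDC2 and macrophages, read 170 CPM in day 3 replicate 1 and between 0.752 and 24.7 in the others. Of the pDC genes tested, 10 of 12 were higher with a median of 1.81, or 0.64 without that tumor, and 8 passed the same threshold, or 6 without it. Irf7, which drives interferon production and is itself induced by interferon in most cells, averaged 80.9 ± 18.7 CPM on day 0, 403 ± 357 on day 1 and 499.6 ± 122 on day 3. Bst2, also interferon-induced, averaged 162 ± 18.3, 435 ± 217 and 339 ± 140 CPM on these days. For both, the highest tumor was day 1 replicate 3, where Siglech was 5.41 CPM.

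The list of 13 further maturation genes had a day 3 median of 0.87 with 11 positive, and 1 passed an unadjusted p of 0.05 in edgeR. The median was 0.0 without day 3 replicate 1, with 7 positive, and 2 passed, Cacnb3 and Slco5a1. The costimulatory receptor Cd40 averaged 12.2 ± 2.50 CPM on day 0 and 28.9 ± 7.86 on day 3, with all day 3 tumors from 22.4 to 37.6 CPM above the day 0 range of 9.51 to 14.5. Socs2, a cytokine signaling inhibitor of mature DCs, reached 30.8 CPM in day 3 replicate 1 and had a log2 fold change of 1.12 (SE 0.57, edgeR adjusted p = 0.193).

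A list of ligands, partners and related genes was measured in the same tumors. It held the ligands and partners Flt3l, Xcl1, Itgb7, Cdh1, Ccl19 and Ccl21a, and also Csf1, Csf2, Batf and Batf2. On day 3, 8 of these 10 genes had a positive log2 fold change, with a median of 0.79 and 5 at an unadjusted p under 0.05 in edgeR. With day 3 replicate 1 left out, the median was 0.85 and 1 passed, Itgb7. Xcl1, the Xcr1 ligand made by NK and CD8 T cells, averaged 1.32 ± 0.338 CPM on day 0 and 3.93 ± 1.08 on day 3, and its day 3 tumors, from 3.00 to 5.11 CPM, all lay above day 0. Flt3l, the Flt3 ligand, averaged 15.9 ± 0.178 CPM on day 0 and 23.0 ± 6.90 on day 3, with all day 3 tumors at 17.9 CPM or more. Both Ccr7 ligands were highest in day 3 replicate 1. Ccl19 averaged 0.127 ± 0.130 CPM on day 0, near the detection limit, and 0.752 ± 0.449 on day 3, with counts from 0 to 30. It passed the filter only through day 3 replicates 1 and 2 and day 5 replicate 1, where it read 1.21, 0.735 and 0.659 CPM. Its levels are therefore a description and no support for a change. Ccl21a read 53.3 CPM in day 3 replicate 1 and no more than 2.59 CPM in any other tumor. Batf, the family member that can stand in for Batf3, averaged 2.61 ± 0.325 CPM on day 0 and 9.94 ± 7.40 on day 3. The integrin partner of Itgae, Itgb7, averaged 139.5 ± 4.69 and 223 ± 48.1 CPM, and Cdh1, its E-cadherin ligand, 8.92 ± 1.52 and 6.84 ± 1.07.

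The promoters of Xcr1, Batf3, Cd209a and Siglech are shown because their day 3 tumors all lay above day 0. Sequences are RefSeq's, from 250 bases before to 50 after the annotated start on GRCm38.p6, in the direction of transcription, and 8 of the 10 members had an entry. Motifs were searched on both strands: the interferon-stimulated response element core (GAAA, any 2 bases, GAAA), the gamma-activated sequence TTCNNNGAA, the AP-1 site TGANTCA, and the PU.1-IRF composite element (GGAA, any 2 bases, GAAA). Capitals mark a match.
Xcr1: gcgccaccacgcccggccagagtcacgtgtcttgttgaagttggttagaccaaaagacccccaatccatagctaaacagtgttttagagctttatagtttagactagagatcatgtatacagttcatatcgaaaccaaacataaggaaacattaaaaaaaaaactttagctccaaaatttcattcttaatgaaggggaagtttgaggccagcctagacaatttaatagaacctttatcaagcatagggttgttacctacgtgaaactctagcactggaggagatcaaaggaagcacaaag
Batf3: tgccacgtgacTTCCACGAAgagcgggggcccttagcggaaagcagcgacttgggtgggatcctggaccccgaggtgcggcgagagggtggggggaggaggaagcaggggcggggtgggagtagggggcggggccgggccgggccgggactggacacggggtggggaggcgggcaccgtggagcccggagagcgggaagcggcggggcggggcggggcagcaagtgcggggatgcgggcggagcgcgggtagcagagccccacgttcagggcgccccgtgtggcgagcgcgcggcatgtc
Cd209a: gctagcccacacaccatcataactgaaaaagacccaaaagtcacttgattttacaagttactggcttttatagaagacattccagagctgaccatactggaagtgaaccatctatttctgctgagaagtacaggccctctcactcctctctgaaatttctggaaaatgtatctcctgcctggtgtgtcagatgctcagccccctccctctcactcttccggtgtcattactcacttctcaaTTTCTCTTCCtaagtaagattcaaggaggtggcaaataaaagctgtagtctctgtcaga
Siglech: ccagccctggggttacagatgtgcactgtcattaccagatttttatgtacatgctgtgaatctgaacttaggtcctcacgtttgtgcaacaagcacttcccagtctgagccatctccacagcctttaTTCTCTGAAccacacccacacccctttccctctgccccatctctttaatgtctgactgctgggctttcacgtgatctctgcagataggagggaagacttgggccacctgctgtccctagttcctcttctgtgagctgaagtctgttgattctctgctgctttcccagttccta
The Xcr1 window lay at chr9:123861980-123862279 (minus strand) and held none of the motifs. The Batf3 window, chr1:191098164-191098463 (plus strand), held a gamma-activated sequence from -239 to -231, counted from 0 at the first transcribed base, and the Siglech window, chr7:55767934-55768233 (plus strand), held one from -123 to -115. This motif was present in 8.3% of all 32851 promoters of the same length. The Cd209a window, chr8:3748935-3749234 (minus strand), held a composite element from -9 to 0, read on the opposite strand, a motif found in 2.72% of promoters. None of the 8 windows held the response element core, which 3.44% of promoters held, and the AP-1 site, held by 7.81%, was present in that of Zbtb46. The Zbtb46 window, chr2:181424339-181424638 (minus strand), lies inside the gene span given above, away from its upstream end. The Batf3 window also lies wholly inside its gene span given above, and so does the gamma-activated sequence in it. A match is a run of letters and not evidence of binding.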

How the data were processed

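The authors sequenced RNA of whole tumors, estimated transcript abundance with kallisto, summed it to genes with tximport on GRCm38 (mm10), and deposited these estimated counts, which are whole numbers in the table, with a column per tumor; the transcript set and strandedness are not given in the sources used here, and reads shared by paralogs are divided between them by the estimate. Groups and replicate numbers came from the labels. The time point label gave the harvest day, because the column names number the time points. A gene name that had become a date (1 entry, at most 0.0268% of a tumor's counts) was left out. Of 32543 entries, 31401 matched a mouse gene symbol. Coordinates are from GENCODE M21 (GRCm38).

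The filter was the study's: a gene needed over 0.366 CPM in 3 tumors or more. The main test was edgeR 4.0.16 in R 4.3.3 (TMM, 1 quasi-likelihood fit to the 15 tumors by harvest day with no covariate, two-sided, Benjamini-Hochberg adjustment over all genes tested, called under 0.05), checked on simulated data. Alternatives were DESeq2 1.42.0, its size factors, no filter, robust estimation, only the days compared, plain library totals, a replicate block and each tumor left out. The smallest chi-square per degree of freedom between replicates was 9.56, so none was a repeat. The members and lists were chosen with earlier results of these data known. Named were all 10 members and, of each pathway list, the 2 tested genes with the lowest joint p in edgeR together with partners of the members, and the 3 genes nearest each member in rank.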

Additional observations from a re-analysis of the deposited data

How the results depend on the processing

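The members' calls depended on the test. edgeR called 0 of 10 members and 0.0% of genes in each comparison. DESeq2 called 2 members for day 3 against day 0, where it called 13.5% of genes. It called 6 for day 7 against day 3 and 1 in the joint test, where the shares were 21.6% and 7.63%. Leaving out each tumor in turn kept 0 in edgeR for every comparison but day 7 against day 3, where the count ran from 0 to 2. Batf3 and Zbtb46 were called (edgeR adjusted p = 0.0494 each) without day 3 replicate 3. The share of all genes called in that fit is not given here, so these calls are not read as a result about the members. The log2 fold change of Flt3 for day 3 against day 0 was -0.12 without day 3 replicate 1, in edgeR and in DESeq2, and ran from -0.12 to 1.49 over the tumors left out. That of Clec9a for day 7 against day 3 was 0.24 without that tumor, with a range of -0.79 to 0.24. Every other member kept its direction in these comparisons under all alternatives run. With a replicate block in edgeR, the count of members called was 0 in every comparison. Replicate numbers were not treated as pairs in the main test. The deviations of same-numbered tumors from their day means correlated above 0.1 in 9 of 30 pairs, with a range from -0.619 to 0.511. With 3 tumors per day and a tumor that stood far apart, this check cannot exclude a batch shared by replicate number. Depth limits Cd209a most, with counts from 1 to 156 in a tumor.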

Other observations

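Some genes of other DC states, chosen after their values were seen, were high in both day 3 replicate 1 and day 5 replicate 1. Ccl22, a chemokine of mature DCs that attracts regulatory T cells, read 19.8 CPM in day 3 replicate 1 and 21.0 in day 5 replicate 1 and between 2.26 and 6.74 in the other tumors. Il12b, a subunit of interleukin 12 and 23, read 3.87 and 4.98 CPM against 0.251 to 1.43. Mgl2, a lectin of cDC2 and macrophages, read 20.1 and 15.3 CPM, followed by 11.9 in day 0 replicate 1. Irf8, the transcription factor of cDC1 and pDC development that macrophages and B cells also use, read 230.2 and 185 CPM in these tumors, but it was also at 131 or more in the remaining day 3 tumors against 80.7 or less on day 0. Cadm1, an adhesion molecule of cDC1 and many other cells, read 152 CPM in day 3 replicate 1 and 56.2 in day 5 replicate 1, below the 82.4 of day 3 replicate 3.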
